A study of Homo sapiens with 2 samples.

Results

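The potassium channel genes examined were the RefSeq protein-coding genes of chromosomes 1 to 22 whose symbols begin with KCN. There were 94 of them among 19126 protein-coding genes on those chromosomes. Open chromatin was mapped in U2OS, an established human osteosarcoma cell line, by ATAC-seq, an assay that inserts sequencing adapters into accessible DNA with Tn5 transposase. The control library (sh-ctrl) came from cells given a control hairpin, and the knockdown library (sh-VNGD) from cells given one that targets Vanguard, a long non-coding RNA. The labels give both the same medium, DMEM with 10% FBS, and name no other difference. The level of Vanguard was not measured by this assay. Each group held 1 library, so no difference below has a replicate check and no p-value was computed. Intervals are exact 95% intervals and cover counting error only.

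Potassium channels let potassium ions cross the membrane along their gradient, which sets the resting potential and ends action potentials. Voltage-gated channels (KCNA to KCND, KCNF to KCNH, KCNQ, KCNS and KCNV) open on depolarization. Some of these subunits, however, form no channel alone and only modify others. Inward rectifiers (KCNJ) and leak channels (KCNK) hold the resting potential, and ion-activated channels (KCNMA, KCNN, KCNT and KCNU) answer to calcium, sodium or internal pH. Auxiliary genes (KCNAB, KCNE, KCNIP, KCNMB and KCNRG) encode subunits or regulators that tune the pores. Many members are best known from neurons, heart and muscle, and others, such as KCNN4, from blood and epithelial cells. An accessible gene end is not evidence of transcription, and RNA was not measured.

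The sh-ctrl library held 51628228 tags, of which 56% were duplicates, and sh-VNGD 48164322, of which 35% were. After removal of duplicates 22931980 tags remained for sh-ctrl and 31326715, 1.37 times as many, for sh-VNGD. The difference in kept tags thus came with a higher duplicate share in sh-ctrl and not with fewer tags read. These gave 202226 and 285039 peaks on chromosomes 1 to 22. The pileup of a peak is the number of tags covering its summit, and the lowest called values were 6 and 7 tags. A called peak therefore needs fewer than 10 tags where the local background is low, and a gene end without a peak may still hold tags. Among markers of the labelled cell type, 6 of 11 bone and mesenchyme genes had an end peak in both libraries, including COL1A1 with 94 and 75 tags. RUNX2 and VIM, which also mark this lineage, had no end peak and had inner peaks of 131 and 96 tags, and of 94 and 91 tags. End peaks were also found in both libraries at 7 of 11 neuronal markers, 2 of 10 muscle markers, 4 of 6 haematopoietic markers and 4 of 5 epithelial markers. Of all protein-coding genes, 70.6% had one in both libraries, so an end peak alone does not mark a cell type.

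The first question was which potassium channel genes were open. A gene end counted as open when a region formed by joined peaks of both libraries came within 1000 bp of an outer end of the gene, and each gene was represented by the end whose regions summed to more depth-scaled tags. Of the 94 genes, 50 (53.2%) had an end peak in both libraries, against 70.6% of all protein-coding genes. At the end used, a peak in sh-ctrl only was found at 6 genes (6.38%, against 2.9% of all genes), and in sh-VNGD alone at 8 (8.51%, against 4.86%). One of the 6, KCNK3, had a peak of sh-VNGD at its other end, so that over both ends 51 genes had peaks of both libraries and 5 of sh-ctrl only. The remaining 30 genes (31.9%, against 21.6%) had no end peak in either library. Of these 30, 25 had a peak further inside, against 2613 of the 4136 protein-coding genes without an end peak. This left KCNA5, KCNA10, KCNJ8, KCNK18 and KCNAB3 with no peak in or near the gene.

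The family was not open to one extent. End peaks in both libraries were found at 6 of 8 ion-activated channel genes (75%), 28 of 39 voltage-gated genes (71.8%), 8 of 15 leak channel genes (53.3%), 5 of 16 inward rectifier genes (31.2%) and 3 of 16 auxiliary genes (18.8%). Over RefSeq starts, described next, the shares with a peak of both libraries were 5 of 7 ion-activated genes (71.4%), 11 of 25 voltage-gated (44%), 4 of 12 leak (33.3%), 0 of 13 inward rectifier and 2 of 13 auxiliary genes (15.4%), against 65.5% of all genes. Voltage-gated genes were thus near the share of all genes at outer ends and below it at starts. These are counts over few genes, and no test of the difference between classes was made.

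**Figure D1:**
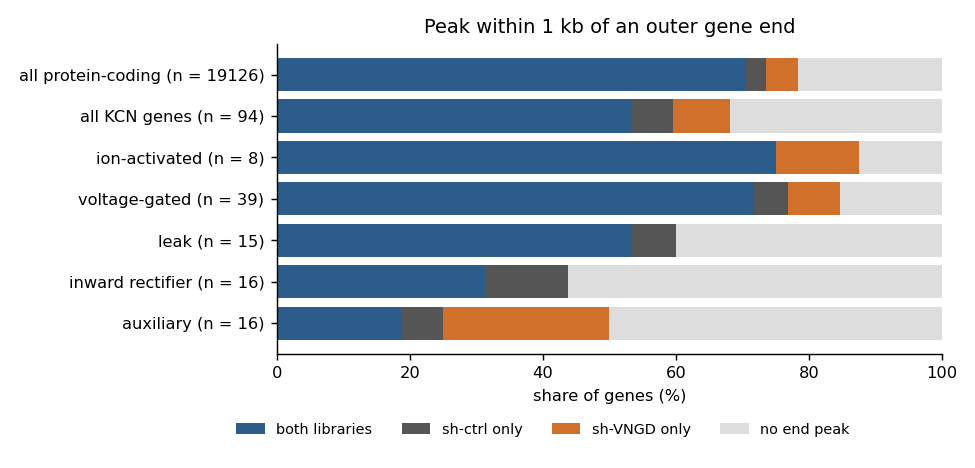
Share of genes (x axis, percent) with a peak within 1 kb of an outer end in both libraries, in 1 library only or in neither, for all protein-coding genes, all KCN genes and the 5 KCN classes. Bars for ion-activated and voltage-gated genes reach 75% and 71.8% in both libraries, near the 70.6% of all genes, and those for inward rectifier and auxiliary genes 31.2% and 18.8%.

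Outer ends do not equal transcription starts, so the RefSeq start windows were examined next. These 300-base windows run from 250 bases before to 50 bases after an annotated start, on GRCh38.p14. Entries were found for 70 of the 94 genes, 108 windows in all, since some genes have several starts. A peak of both libraries lay over a start window in 22 of the 70 genes (31.4%), against 65.5% of all genes with an entry. The channel genes without an entry all had an end peak in both libraries, except KCNAB3, KCNJ12, KCNS1 and KCNU1. Counts over starts therefore leave out mostly genes open at an outer end and do not describe the whole family. By single windows, 25 of 108 had a peak of both libraries, 7 of sh-ctrl only, 6 of sh-VNGD only and 70 of neither. At the 5′ ends of the 70 genes with known strand, 40 had a peak that itself lay within 1000 bp in either library and 25 in both. Counted by joined regions, the latter number was 26. At their 3′ ends, the counts were 17 and 12. Where both libraries had a 5′ peak, the median distance of the summit from the start was 309 bp in sh-ctrl and 218 bp in sh-VNGD.

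Start windows with a peak of both libraries were richer in CpG, the dinucleotide that is depleted over most of the genome and kept in CpG islands. Their median ratio of observed to expected CpG was 0.78, against 0.41 in windows with no peak. All protein-coding genes differed in the same direction, with 0.85 and 0.32. The share of CpG-rich windows with a peak was lower in the channel genes with an entry than in all genes with one, a description with no test. At a ratio of 0.6 or more, 18 of 52 channel windows (34.6%) had a peak of both libraries, against 80.9% of 13249 windows of all genes. Below 0.6, the shares were 12.5% of 56 and 20.7% of 7907. CpG-rich windows without a peak belonged to 23 genes, among them KCNA2, KCNA3, KCNA6, KCNA7, KCNJ8 and KCNJ10. Several windows of 1 gene lie close together and are not independent.

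**Figure D2:**
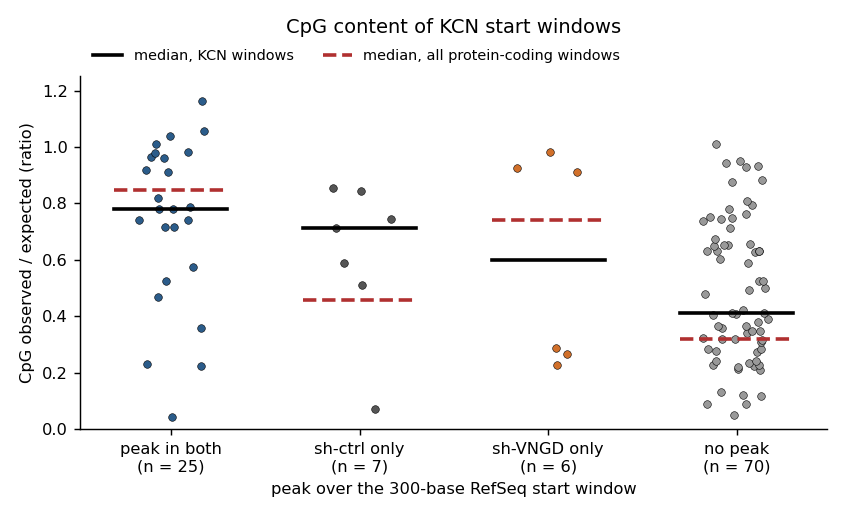
Ratio of observed to expected CpG (y axis) in the 108 RefSeq start windows of KCN genes, grouped by the libraries with a peak over the window (x axis); points are windows, black lines KCN medians and dashed lines medians of all protein-coding genes. Windows with no peak reach as high as 1.01, and windows with a peak in both libraries as low as 0.04.

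The 250 bases before 4 of these starts, from RefSeq on GRCh38.p14, show the range, with CG dinucleotides in capitals. They were chosen after their values were seen. KCND3 encodes a voltage-gated channel of the A-type current (chr1:111989669-111989918, minus strand). Its window is CpG-rich and overlapped a joined region of 143 (sh-ctrl) and 144 (sh-VNGD) tags. Those summits lay 1878 and 1925 bp from the start, outside the window, and sh-VNGD had a summit of 102 tags nearer to it. KCNA7, a voltage-gated channel gene of muscle, is also CpG-rich and had no peak over the window (chr19:49072700-49072949, minus strand). KCNN4 encodes the calcium-activated channel of red cells and lymphocytes. Its window is CpG-poor and had a peak of 54 (sh-ctrl) and 72 (sh-VNGD) tags (chr19:43780974-43781223, minus strand). KCNMA1 encodes the large-conductance channel gated by calcium and voltage. Its outermost start has 46 CG dinucleotides in 250 bases and had a peak of 18 tags in sh-VNGD only (chr10:77637809-77638058, minus strand).
KCND3: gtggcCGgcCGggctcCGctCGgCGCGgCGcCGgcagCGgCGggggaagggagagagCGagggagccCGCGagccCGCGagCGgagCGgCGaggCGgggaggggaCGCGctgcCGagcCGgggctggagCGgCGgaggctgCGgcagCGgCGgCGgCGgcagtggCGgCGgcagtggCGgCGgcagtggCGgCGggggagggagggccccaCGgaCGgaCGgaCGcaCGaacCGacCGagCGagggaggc
KCNA7: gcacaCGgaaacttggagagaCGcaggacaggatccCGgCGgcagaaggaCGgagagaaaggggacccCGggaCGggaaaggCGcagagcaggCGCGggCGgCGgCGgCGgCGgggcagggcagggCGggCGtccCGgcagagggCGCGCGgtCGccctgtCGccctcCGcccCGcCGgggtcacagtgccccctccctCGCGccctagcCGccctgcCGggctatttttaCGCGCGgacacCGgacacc
KCNN4: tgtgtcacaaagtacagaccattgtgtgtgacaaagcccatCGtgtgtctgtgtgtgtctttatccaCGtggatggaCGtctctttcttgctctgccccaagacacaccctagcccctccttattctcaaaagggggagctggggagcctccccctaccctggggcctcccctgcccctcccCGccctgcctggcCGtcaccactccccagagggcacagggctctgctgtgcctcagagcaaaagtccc
KCNMA1: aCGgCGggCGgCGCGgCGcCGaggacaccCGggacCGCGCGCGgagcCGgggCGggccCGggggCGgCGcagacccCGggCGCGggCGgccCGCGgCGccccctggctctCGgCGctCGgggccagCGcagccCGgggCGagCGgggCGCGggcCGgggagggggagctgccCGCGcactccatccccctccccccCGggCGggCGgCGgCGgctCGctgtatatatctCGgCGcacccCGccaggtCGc

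CG dinucleotides numbered 44 in KCND3, 34 in KCNA7 and 5 in KCNN4. KCND3 and KCNA7, with 82.8% and 75.2% G and C, thus resemble each other in composition and differed in accessibility. KCNN4, with 60% of G and C, was open with few CG dinucleotides.

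Motifs were then counted on both strands of the 300-base windows, each by itself, so that 1 base may lie in several. GGGCGG, bound by SP and KLF factors, was in 50.0% of channel windows and 56.6% of the windows of all genes. The TATA box TATAAA was in 8.33% and 9.51%, the AP-1 motif TGANTCA in 8.33% and 6.08%, and the E-box CACGTG in 7.41% and 8.25%. The cyclic AMP element TGACGTCA was in 1 channel window (0.926%, against 2.31%), that of KCNF1. The ETS motif CCGGAAGT and the NRF1 motif were in 0 of 108 channel windows, against 5.44% and 1.5% of all windows. The RE1 element, which the neuronal repressor REST binds, was searched as its left arm CAGCACC (13.9%, against 7.89%) and its right arm GGACAGCG (3.7%, against 1.97%). These matches are letters in a window and not bound sites.

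Matches stood in 3 open windows as follows, with matched letters in capitals in the 250 bases before each start. They too were chosen after their values were seen. KCNF1 encodes a silent voltage-gated subunit and had 60 (sh-ctrl) and 70 (sh-VNGD) tags (chr2:10911684-10911933, plus strand). KCNH5, a channel gene of the ether-a-go-go group, had 24 and 19 tags (chr14:63045459-63045708, minus strand). Its summits lay 404 and 502 bp before the start, outside the bases shown. The sh-VNGD peak spanned the matched letters, and the sh-ctrl peak did not reach them. KCNMA1 has a second start 287047 bases inside the gene, which had 19 and 48 tags (chr10:77350762-77351011, minus strand).
KCNF1: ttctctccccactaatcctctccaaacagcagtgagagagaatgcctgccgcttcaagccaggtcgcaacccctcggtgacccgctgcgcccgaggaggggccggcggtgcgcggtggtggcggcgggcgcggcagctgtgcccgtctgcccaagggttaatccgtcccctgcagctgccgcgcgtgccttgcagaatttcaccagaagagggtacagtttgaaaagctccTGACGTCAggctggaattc
KCNH5: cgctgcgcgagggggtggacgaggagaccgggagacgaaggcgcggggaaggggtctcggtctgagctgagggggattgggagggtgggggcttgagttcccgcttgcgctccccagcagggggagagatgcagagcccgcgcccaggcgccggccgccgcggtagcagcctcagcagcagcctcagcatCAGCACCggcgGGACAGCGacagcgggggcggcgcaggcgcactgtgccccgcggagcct
KCNMA1 inner start: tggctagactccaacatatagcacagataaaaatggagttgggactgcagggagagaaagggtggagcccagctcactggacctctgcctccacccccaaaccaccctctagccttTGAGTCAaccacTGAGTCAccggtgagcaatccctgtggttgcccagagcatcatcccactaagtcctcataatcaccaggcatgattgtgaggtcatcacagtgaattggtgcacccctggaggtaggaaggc

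With the start base counted as 0, the KCNF1 match lay at −19 to −12. In KCNH5, the RE1 left arm lay at −60 to −54 and the right arm at −49 to −42, on the same strand. The inner KCNMA1 start had AP-1 letters at −134 to −128 and at −122 to −116, and its window had a CpG ratio of 0.04 where the outer one had 0.98. KCNS3 also held both RE1 arms, at −212 to −206 and at 35 to 42, in a window with no peak.

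Among voltage-gated genes, the end regions with most tags were those of KCNH6, KCND3 and KCNG1. KCNH6, a channel of the ERG group, had 167 (sh-ctrl) and 175 (sh-VNGD) tags at chromosome 17, 63549808 to 63550988. That region lies past its 3′ end and holds the start of DCAF7, another gene, and the KCNH6 start itself had 105 and 99 tags. The KCND3 region spans 2316 bp at chromosome 1, 111989451 to 111991766, and also holds the start of LINC01750. Its summits lay 1878 and 1925 bp from the KCND3 start. Nearer the start, 21 bp away, sh-VNGD had a summit of 102 tags. KCNG1, a silent subunit that modifies other channels, had 115 (sh-ctrl) and 165 (sh-VNGD) tags at chromosome 20, 51022932 to 51023433. Of these 3 genes, KCNG1 alone had a counting interval of the ratio, given below, that excluded equal pileups.

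Further high voltage-gated regions belonged to KCNS3, KCNG3, KCNV1 and KCNC4. KCNS3, another silent subunit, had 118 and 102 tags, with summits 1505 and 1500 bp inside the outer start, in a region that also holds its inner RefSeq start. KCNG3 had 119 and 99 tags in a region that also holds the start of MTA3. KCNV1, a silent subunit as well, had 89 and 99 tags, with summits 37 and 24 bp from the end. KCNC4 had 84 and 94 tags at chromosome 1, 110210025 to 110211224. Of the silent subunit genes (KCNF, KCNG, KCNS and KCNV), KCNF1, KCNG1, KCNG3, KCNG4, KCNS2, KCNS3 and KCNV1 had a peak in both libraries, KCNS1 in sh-ctrl alone (10 tags), and KCNG2 and KCNV2 in neither.

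All 8 KCNH genes had an end peak in both libraries. KCNH1, a channel gene that many tumours express, had 85 (sh-ctrl) and 52 (sh-VNGD) tags at chromosome 1, 211133862 to 211134467, within 100 bp of its start. KCNH2, which encodes the hERG channel of cardiac repolarization, had only 33 and 27 tags at its outer end. Its highest region at a RefSeq start, 3280 and 3815 bases inside the gene, had 41 and 58. KCNH3 had 72 and 63 tags, KCNH8 59 and 64, KCNH7 29 and 26, KCNH5 24 and 19, and KCNH4 16 and 19. KCNH6 was named above.

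KCNQ genes carry the M current in neurons and the slow delayed rectifier in the heart. KCNQ1, the cardiac member, had 35 (sh-ctrl) and 46 (sh-VNGD) tags at the end it shares with TRPM5. KCNQ3 had 37 and 58 tags. KCNQ5 had 16 tags, in sh-ctrl alone. The KCNA genes, relatives of the fly Shaker channel, were mostly low or closed. KCNA2 had 58 and 74 tags, KCNA7 18 and 20 and KCNA1 8 and 12. KCNA4 had 11 tags in sh-VNGD alone, and KCNA3, KCNA5, KCNA6 and KCNA10 had no end peak. KCND2, a channel of the A-type current, and KCNC2, a fast delayed rectifier, had 14 and 13 tags, each in sh-VNGD alone.

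All but 2 ion-activated genes had an end peak in both libraries, the exceptions being KCNMA1 and KCNU1. KCNT2, a sodium-activated channel gene, had 155 (sh-ctrl) and 156 (sh-VNGD) tags at chromosome 1, 196224651 to 196225480, beyond its 3′ end. Over its start window, 12 tags were called, in sh-ctrl alone. KCNN1, a small-conductance calcium-activated channel gene, had 81 and 74 tags at its 3′ end, in a region that holds the start of ARRDC2. KCNN3 had 79 and 58 tags within 200 bp of its own start, and KCNT1 60 and 51 at its 3′ end. KCNN2 had 11 and 13 tags at the outer end and 63 and 76 over a start 306092 bases further in. KCNN4 had 52 and 49 tags beyond its 3′ end, where its regions summed to more tags, and 54 and 72 over its start. Its ratio relative to all genes, on the scale used below, was −0.09 at the 3′ end and 0.42 at the start. KCNU1, a sperm channel gene, had no end peak.

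Among the leak channel genes, KCNK13 had 103 (sh-ctrl) and 108 (sh-VNGD) tags, with summits 1232 and 1281 bp before its start. The sh-ctrl peak there lay over 1000 bp away and was counted through the joined region. KCNK5, a pH-sensitive channel, had 90 and 106 tags at chromosome 6, 39229207 to 39229790, over its start. KCNK12 had 69 and 82 tags, KCNK1 52 and 52, KCNK9 46 and 46, KCNK6 37 and 32, KCNK15 27 and 38, and KCNK7 30 and 25. KCNK3, the acid-sensitive channel of pulmonary artery muscle, had 23 tags at its start in sh-ctrl alone and, 692 bp past its 3′ end, 20 tags in sh-VNGD alone. KCNK2, the mechanosensitive channel TREK1, had no end peak and a peak of 70 and 89 tags inside.

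Inward rectifier genes were mostly closed at their ends. KCNJ11, the pore of the ATP-sensitive channel of beta cells and muscle, had 65 tags in each library. KCNJ5 had 40 and 43, KCNJ3 26 and 19, and KCNJ9 18 and 40. These encode subunits of the G protein-gated channel. KCNJ6, also of that group, had a peak of 13 tags in each library, in different regions of the same end. KCNJ2, the classical inward rectifier of muscle, had 18 tags in sh-ctrl only, as did KCNJ13. No end peak was found at KCNJ1, KCNJ4, KCNJ8, KCNJ10, KCNJ12, KCNJ14, KCNJ15, KCNJ16 and KCNJ18. KCNJ12 and KCNJ18 are near-identical copies, so their reads may be shared and their calls are uncertain.

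Of the auxiliary genes, KCNAB2, a beta subunit of KCNA channels, was highest, with 129 (sh-ctrl) and 115 (sh-VNGD) tags. That region, at chromosome 1, 5992150 to 5992913, is shared with the start of NPHP4. A pair of its inner RefSeq starts had 78 and 85 tags, and 37 and 47. KCNMB4, a beta subunit of the large-conductance channel, had 48 and 77, and KCNE4 25 and 20. Peaks in 1 library only were low, with 21 tags in sh-ctrl at KCNIP2, and in sh-VNGD 17 tags at KCNE2, 13 at KCNMB1 and KCNRG, and 11 at KCNIP1. KCNMB1 and KCNIP1 overlap in the genome.

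**Figure D3:**
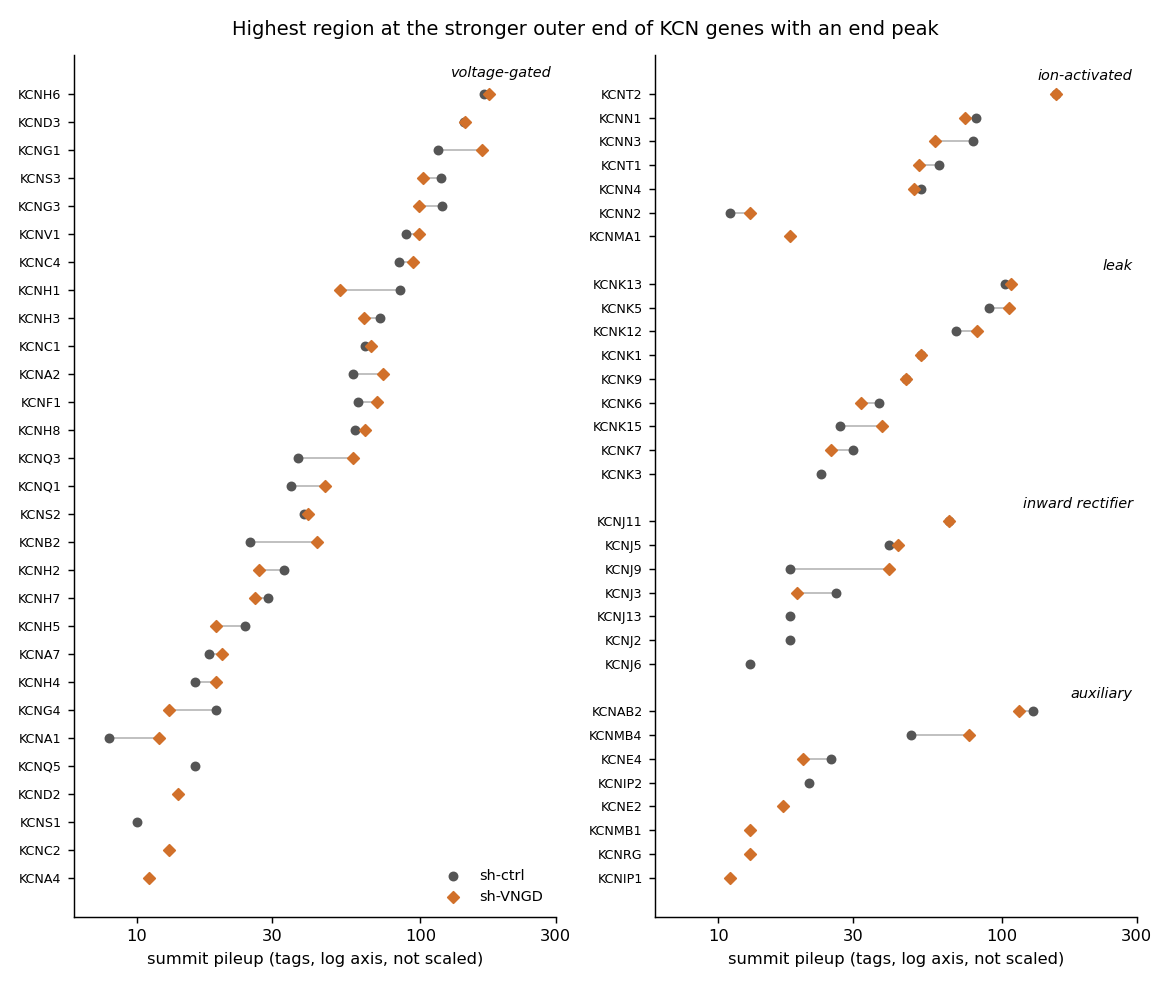
Summit pileup in tags (x axis, log scale, not scaled to depth) of the highest region at the stronger outer end of KCN genes, by class. Shown are 60 of the 64 KCN genes with an end peak. Circles are sh-ctrl and diamonds sh-VNGD. Where both values are equal or nearly so the diamond covers the circle (KCND3, KCNJ11, KCNK1, KCNK9 and KCNT2). Any other gene with 1 marker had a peak of 1 library in that region. The highest pair is KCNH6 at 167 and 175 tags, and genes with a peak of 1 library lie at 23 tags or less.

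The next comparison asked whether the ends of channel genes differed between the libraries. Pileups were divided by kept tags, and sh-VNGD over sh-ctrl was expressed in log2. This ratio could be formed for 49 genes, where both libraries had a peak in one region. Their median was −0.38, against −0.45 for all 13426 genes with a ratio. Median pileups were 52 tags in each library, against 75 and 73 tags for all genes. Single genes are given relative to the median of all genes, which comes to the same as comparing unscaled pileups. On that scale 28 genes lay above 0, 18 below and 3 at 0, namely KCNJ11, KCNK1 and KCNK9.

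A ratio 1.5-fold or more above the median was found at 7 of the 49 genes (14.3%), against 7.02% of all genes. Among them were KCNJ9 at 1.15 (0.32 to 2.04), KCNB2 at 0.78 (0.04 to 1.56), KCNMB4 at 0.68 (0.14 to 1.23), KCNQ3 at 0.65 (0.03 to 1.28) and KCNA1 at 0.58 (−0.83 to 2.08). KCNA1, with 8 and 12 tags, stood exactly at the bound. A ratio 1.5-fold or more below it was found at 1 gene (2.04%, against 3.6%), KCNH1 at −0.71 (−1.24 to −0.19). Intervals lay wholly above the median at 6 genes, against 4.19% of all genes, and wholly below at 1, against 4.39%. One of the 6 was KCNG1 at 0.52 (0.17 to 0.88). The members with the next lowest ratios among those with 30 tags or more were KCNN3 at −0.45 (−0.96 to 0.06), KCNH2 at −0.29 and KCNG3 at −0.27, all with intervals spanning 0.

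The values differed between measures. The authors' fold enrichment divides the pileup by a background estimate, which was not local at every peak. Relative to all genes by the same measure, KCNJ9 was at 0.94, KCNQ3 at 0.42 and KCNB2 at 0.36. KCNMB4 was at 0.30, KCNG1 at 0.18 and KCNH1 at −0.21. By this measure 3 genes stood 1.5-fold or more above the median (6.12%, against 3.17% of all genes), KCNJ9 and KCNK15 (0.69) among them, and KCNG4 (−0.69) stood below it. KCNB2, KCNMB4, KCNQ3, KCNA1 and KCNH1 no longer passed. The pileup divided by the fold enrichment approximates that background. In scaled tags and relative to all genes, it was lower in sh-VNGD at KCNH1 (−0.52). It was higher at KCNB2 (0.40), KCNMB4 (0.36) and KCNG1 (0.33). At KCNB2 the sh-ctrl background was the value shared by many low peaks of that library, and not a local one. The part of the background in the ratios was not tested. KCNJ9 shares its end with IGSF8, and strand was not known here for KCNJ9, KCNB2, KCNQ3, KCNMB4, KCNA1 and KCNG1, so these regions cannot be assigned to a start.

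**Figure D4:**
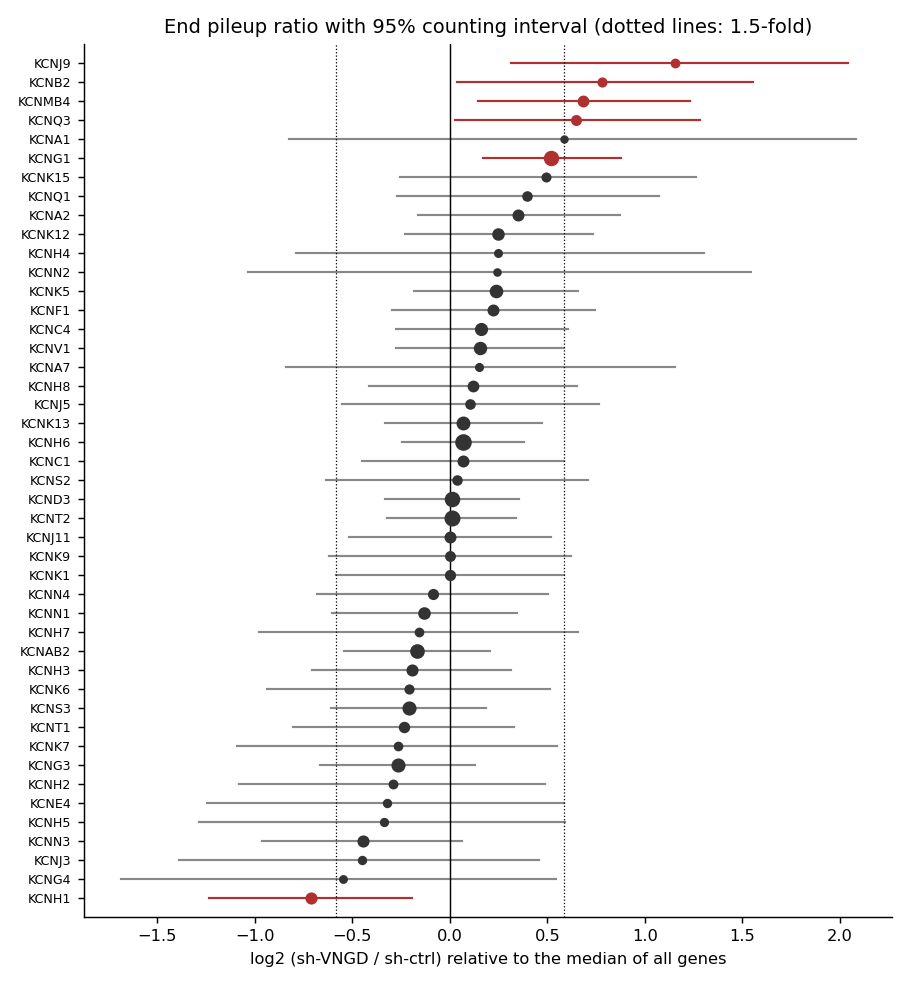
The log2 ratio of sh-VNGD to sh-ctrl end pileup relative to the median of all genes (x axis) for 45 of the 49 KCN genes with a ratio; lines are exact 95% counting intervals, point size grows with pileup, and dotted lines mark 1.5-fold. Intervals in red exclude 0, which was the case for 5 genes on the right, led by KCNJ9 at 1.15, and for KCNH1 at −0.71 on the left.

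Peaks within the genes, over 1000 bp from both ends, were counted next. Of the 94 genes, 77 (81.9%) had an inner peak in either library, against 75.4% of all genes, and long genes had them almost without exception in both sets. All 30 channel genes of 100 kb or more had one, as did 3209 of the 3210 protein-coding genes of that length. Per 100 kb of these long bodies, sh-ctrl had 5.92 peaks in channel genes and 7.09 in all genes, and sh-VNGD 8.08 and 10.1. Joined over both libraries, channel genes held 1200 inner regions, of which 519 (43.2%) had a peak of both libraries, against 40.9% of the inner regions of all genes. Of the 519, 6 overlapped a RefSeq start of the same gene and 4 a start of another.

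Inner regions of 50 tags or more numbered 81, which is 6.75% of the family's inner regions, against 7.83% for all genes. They lay in 40 genes, and 10 of these genes had no end peak. Those of 100 tags or more numbered 11, in 10 genes. The highest lay in KCNIP4, which encodes a calcium-binding partner of KCND channels and is among the longest of the family. It had 160 (sh-ctrl) and 163 (sh-VNGD) tags at chromosome 4, 21159325 to 21160151, and a further region of 148 and 138 at 21108909 to 21109740. KCNB2, KCNQ5 and KCNH8 had inner regions of 138 and 152 tags, 134 and 150, and 135 and 129. These were higher than the end regions of the same genes. In KCNQ1 an inner region at chromosome 11, 2699855 to 2700478, had 117 and 98 tags.

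Genes without an end peak were not without accessible chromatin. KCNAB1, a beta subunit gene, had an inner region of 95 and 101 tags at chromosome 3, 156284178 to 156285032. KCNIP3, which encodes the calcium sensor DREAM, had 75 and 82 tags at chromosome 2, 95300413 to 95300987. Another of its regions, with 22 and 42 tags, overlapped the window of its inner RefSeq start and ended before that start. KCNJ10, the inward rectifier of astrocytes, had 71 and 47, and KCNE1, the partner of KCNQ1 in the heart, 60 and 68. KCNK2 had 70 and 89 tags at chromosome 1, 215076299 to 215076693.

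KCNMA1 combined a weak outer end with many inner peaks. Inner peaks numbered 62 (sh-ctrl) and 70 (sh-VNGD). The highest inner region, at chromosome 10, 77409873 to 77410686, had 134 (sh-ctrl) and 91 (sh-VNGD) tags, and the inner start with the AP-1 letters shown above had 19 and 48. The libraries thus differed in opposite directions at the 2 regions of this gene. The other genes with most inner peaks were KCNIP4 with 46 and 77, KCNQ5 with 32 and 44, KCNAB1 with 30 and 40 and KCNIP1 with 29 and 41.

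Summed over the family, inner peaks numbered 741 in sh-ctrl and 992 in sh-VNGD, a ratio of 1.34, against 1.40 for all genes. KCNMB2, a beta subunit gene of the large-conductance channel that inactivates it, stood apart, with 3 inner peaks in sh-ctrl and 21 in sh-VNGD. It was singled out after its values were seen. With 1 added to each count, its ratio was 5.5, against a median of 1.38 over 3430 genes with 20 or more inner peaks in the libraries together, and no other of these genes reached it. The peaks were low, at 16 tags or less in sh-ctrl and 20 or less in sh-VNGD, and sh-VNGD had more kept tags. The part of kept tags or of the duplicate share in this difference was not tested.

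**Figure D5:**
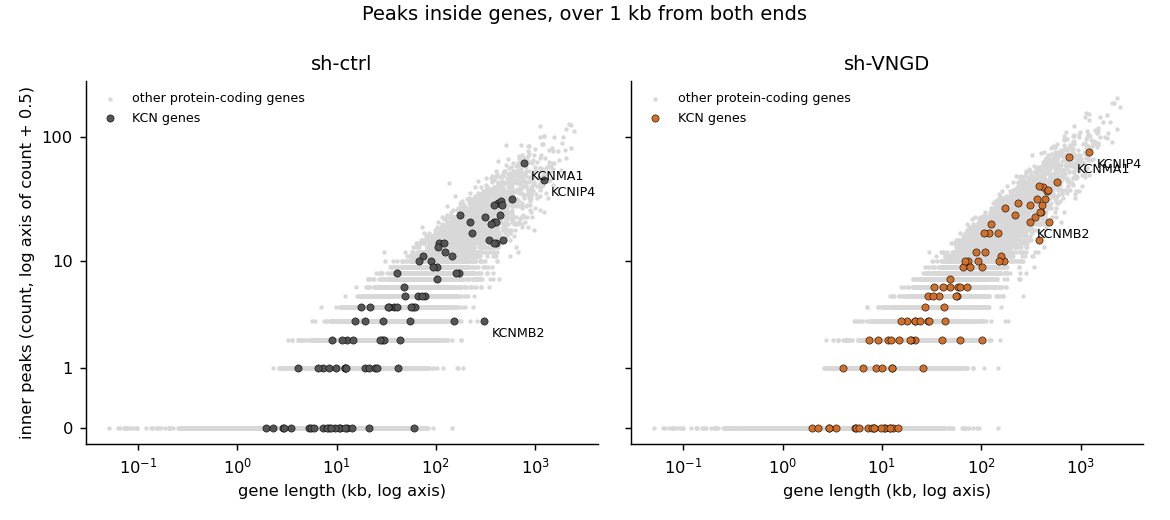
Number of inner peaks (y axis, log scale of the count plus 0.5) against gene length in kb (x axis, log scale) in sh-ctrl (left) and sh-VNGD (right); coloured points are the 94 KCN genes and grey points all other protein-coding genes. KCNMA1 has the most peaks in sh-ctrl among KCN genes, 62, and KCNMB2 moves from 3 peaks on the left to 21 on the right.

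Lists of other ion transport genes were set beside the family. Of 13 sodium channel genes, 7 had an end peak in both libraries (53.8%), as did 3 of 9 calcium channel pore genes (33.3%). The share over all protein-coding genes was 70.6%. Among 13 genes for pumps, cotransporters and sulfonylurea receptors that move potassium or regulate its channels, 7 were open in both. These included ATP1B1, a beta subunit of the sodium pump, with 126 (sh-ctrl) and 115 (sh-VNGD) tags. ABCC8 and ABCC9, the partners of KCNJ11 and KCNJ8, had no end peak and had inner peaks of 127 and 143 tags, and of 56 and 61. A ratio could be formed at 7 sodium channel genes, 3 calcium channel genes and 7 genes of the last list. It was 1.5-fold or more below the median at 1 sodium channel gene and 1 calcium channel gene, and above it at none. Over all genes the shares were 3.6% and 7.02%, and so few ratios cannot show a contrast with them.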

How the data were processed

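ATAC-seq peaks of 2 libraries were used, 1 for sh-ctrl and 1 for sh-VNGD. Per the file headers, the authors called peaks with MACS 2.1.0.20150731 on each library separately, with tags shifted by 100 bp and extended to 200 bp, 1 tag kept per position and a q cutoff of 0.05. Bowtie2 2.2.5, deepTools, MACS2 2.1.2 (another version than in the headers), GRCh38.p13 and hg38 are listed in the submitters' processing notes. Alignment filters are not given in the sources used here. The deposited pileup is a signal not scaled for depth. The deposited fold enrichment is a ratio over a background estimate, with a local window of 10000 bp. Many peaks with few tags had the same background value within a library, so the estimate there was not local. Of the deposited −log10 p and −log10 q values, only q was used, as an alternative filter.

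Peaks of both libraries overlapping by 1 bp were joined into regions, and regions within 1000 bp of the outer ends of RefSeq GRCh38.p14 genes were assigned to them. Exons and introns were not used here. The end with the larger sum of depth-scaled tags was used. Strand and starts came from the RefSeq promoter table. Ratios of pileups were scaled to kept tags, with Clopper-Pearson 95% intervals, and were tested on simulated data. The members and lists were chosen with earlier results of these data known. Named genes were the 12 with most end tags, those with a peak in 1 library only (20 tags or more, and the 4 next per library), the 4 highest and 4 lowest ratios at 30 tags or more, the 5 with most inner peaks, the 5 highest inner peaks without an end peak, and KCNMA1, KCNH2, KCNH1, KCNQ1, KCNN4, KCNJ2 and KCNK2. Some genes are not reported here. Others named were added after their values were seen. Alternatives were other windows, a stricter q, equal numbers of peaks, own peaks, 5′ ends, start windows and other choices of end. Further ones were fold enrichment, unscaled pileups, the background (pileup over fold enrichment), a pileup minimum and members with unshared ends or near summits. Python 3.11.15, pandas 2.3.3 and SciPy 1.17.1 were used.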

Additional observations from a re-analysis of the deposited data

How the results depend on the processing

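The number of channel genes with an end peak in both libraries was 50. It stayed within 1.5 times of that under windows of 500 and 2000 bp (42 and 65), a −log10 q of 5 or more (48), own peaks (49), equal numbers of peaks (48) and, added after seeing the data, without the members that share an end (43), over both outer ends (51) and with the end of the highest single region (50). The last choice turned the sign of the KCNN4 ratio, from −0.09 to 0.42. At 5′ ends with known strand it was 26 of 70, and over RefSeq start windows, added after seeing the data, 22 of 70. Both settings cover fewer genes, and most of those left out had an end peak in both libraries. Under every one of these settings the share of channel genes was below that of all genes. Genes with a peak in 1 library only ran from 12 to 15, and genes with an inner peak from 72 to 77. The median log2 ratio was 0.066 for unscaled pileups, which turned its sign because the depth term is left out, and kept its sign under the other settings, from −0.41 to −0.06. Genes 1.5-fold higher numbered 7, and 3 by fold enrichment. Lower genes numbered 1, and 2 with own peaks, where KCNS3 (118 and 75 tags) joined KCNH1. By fold enrichment the sign changed at genes including KCND3, KCNH3, KCNH6, KCNS3 and KCNT2, none of them 1.5-fold by joined regions. The causes were not tested. No paired analysis was possible because each group has 1 library, and no library could be left out. Pileups under 30 tags give wide intervals, as for KCNA1.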
